A study of Mus musculus with 9 samples.

Results

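Livers of mice that had received either of 2 antibiotics early in life were taken as 1 group of 6 and set against the livers of 3 control mice, to see which genes differed in every exposed mouse long after the last course. The brightest probe set, by its mean over all 9 arrays, stood for each gene. A gene was taken as separated when all 6 antibiotic arrays lay above, or all lay below, all 3 control arrays. With a mean log2 value over 6 required as well, 599 genes were separated higher and 180 lower, of 7524 genes at that level and 18193 genes on the arrays.

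All mice were female C57BL/6J, all were later fed a high-fat chow, and liver RNA was measured on 9 Affymetrix arrays, 1 for each mouse. Pulsed antibiotic treatment (PAT) was given in the drinking water in 3 courses, on days 10 to 15, 28 to 31 and 37 to 40. The 3 amoxicillin mice received 25 mg/kg/day (0.167 mg/ml), the 3 tylosin mice 50 mg/kg/day (0.333 mg/ml), and the 3 control mice received none. The description of the study gives 22 weeks as the age at sacrifice, whereas the sample labels give 24 weeks. Amoxicillin is a beta-lactam that blocks the building of the bacterial wall, and tylosin is a macrolide that blocks bacterial protein synthesis. The replicates carry only numbers, with no litter, cage or hybridization batch. In the study, every mouse of a litter went to 1 treatment group, litters had separate cages, and each group held more than 1 litter. Antibiotic exposure therefore cannot be told apart from litter or cage here, and mice of a group may be littermates. A p-value here covers only the variation among the mice at hand, with that of the measurement.

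The liver receives blood from the gut through the portal vein, and with it microbial products and nutrients. In hepatocytes, Srebf1 switches on fatty acid synthesis and Ppara switches on fatty acid oxidation, so the pair sets much of the balance between storing and burning fat. TGF beta and the Hippo pathway, whose effectors are YAP, TAZ and the TEAD factors, tie the tension of the actin cytoskeleton to the transcription of matrix genes such as Ccn2. Small heat shock proteins such as Hspb1 hold unfolded proteins in a soluble state and protect actin filaments.

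Values are log2 expression values normalized by the authors with RMA, and differences are given on that log2 scale as antibiotic minus control. The hepatocyte products albumin (Alb, 14.64 to 14.71) and transthyretin (Ttr, 14.44 to 14.53) were near the top of the range in every array, as the liver label requires. The antibiotic arrays were spread more widely than the control arrays: their SD over all probe sets was 2.29 to 2.35 against 2.26 to 2.27, and their medians were 3.96 to 4.03 against 4.03 to 4.06. Since every antibiotic array had a wider spread, separation was also counted with the array medians set equal and with quantile normalization, and "under all 3 scalings" means with these and with the values as deposited. In pieces of whole liver, fewer cells of a type and less RNA per cell cannot be told apart.

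The separated genes at higher level were led by Ccn2, Pxylp1, Stx6 and the other genes described below, and those at lower level by Rpl27a, Hspb1 and Slc25a25. Of genes with a mean log2 value over 6, 7.96% lay higher in all 6 PAT livers and 2.39% lay lower. The median difference was 0.32 among the 599 higher genes, a 1.25-fold change, and -0.24 among the 180 lower genes, a 1.18-fold change. Most of these shifts were small: 73 higher and 13 lower genes differed by more than 0.5, and 72 and 12 were called by the limma test described below, where 1.45% and 0.292% of all genes at that level were called. Separation was often narrow as well. The gap between the nearest antibiotic and the nearest control array exceeded 0.1 in 203 higher and 36 lower genes, and was under 0.01 in 62 and 27. Slc25a25, with a gap of -0.00, lay just inside the rule, and the mitochondrial ADP/ATP carrier gene Slc25a4 lay just outside it. Slc25a4 stood at 6.62, 6.48 and 6.14 in control livers, and one amoxicillin array, at 6.56, fell within that range.

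How many genes lay on each side depended on how the arrays were scaled. Among genes with a mean log2 value over 6, higher genes made up 76.9% of the separated genes as deposited, 91.1% with array medians set equal (941 higher, 92 lower) and 41.1% with quantile normalization (315 higher, 451 lower). The median difference of all 7524 genes was 0.07, 0.12 and -0.01 in that order. Under all 3 scalings, 307 genes stayed separated higher and 90 lower. Of the genes described below, Ccn2, Pxylp1, Stx6, Birc6, Rprd2, Sall1, Trp53bp1, Trp53inp1, Ube2v2, Rpl27a, Inpp5j, Blvrb, Smg9 and Lama5 were among these, and Tob2, Ip6k2, Prpf39, U2surp, Wwtr1, Smad1, Smad5, Ppara, Cpt2, Slc25a20, Acaa2, Hspa4 and Slc25a25 were not.

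Direction also followed expression level. Among genes with a mean log2 value under 4, 0.444% were separated higher and 7.32% lower. From 6 to 8 the shares were 9.44% and 2.58%, and at 10 or more they were 3.0% and 3.29%. Of all 975 genes separated lower, 78.5% stayed under 6 in every array, compared with 16.7% of the 792 separated higher and 55.1% of all genes. Dim values hold more background of the array, which is why the text keeps to genes with a mean log2 value over 6 except where another level is stated. As 6 of the 9 arrays averaged were antibiotic arrays, 43 higher genes passed that level with a control mean of 6 or less, Pxylp1, Trp53bp1 and Prpf39 among them, and 24 lower genes with a control mean over 6 were left out. With both group means over 6, a rule chosen after the data were seen, 556 of 7317 genes were separated higher (7.6%) and 172 lower (2.35%). Whether the wider spread of the antibiotic arrays contributed to this pattern was not tested.

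**Figure D1:**
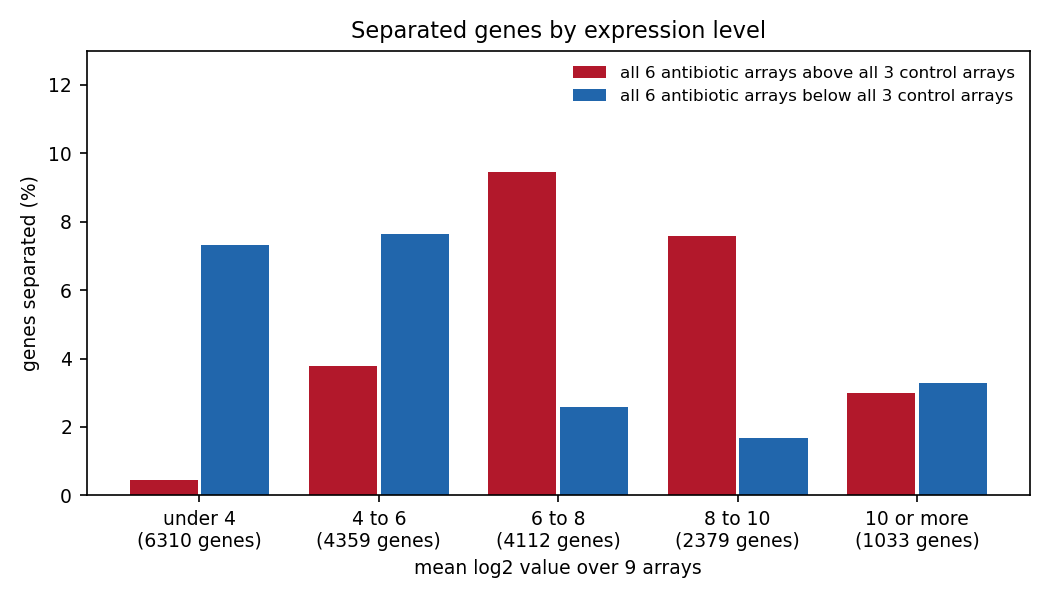
Share of genes (vertical axis, percent) in which all 6 antibiotic arrays lay above (red) or below (blue) all 3 control arrays, by mean log2 value over the 9 arrays (horizontal axis). Genes under 4 were separated almost solely downward (7.32% against 0.444%), whereas genes from 6 to 8 were separated mostly upward (9.44% against 2.58%).

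The groups were also compared with limma across all probe sets, where a gene was called at an unadjusted P under 0.01 and a log2 difference over 0.5 in size. Over all 18193 genes, 167 were called higher (0.918%) and 70 lower (0.385%). Array medians set equal gave 284 higher and 31 lower, and quantile normalization 89 and 99, so higher genes made up 70.5%, 90.2% and 47.3% of the calls with the 3 scalings. Separation over all levels held for 792 genes higher (4.35%) and 975 lower (5.36%), and 116 and 49 of these were also called. Separation and the call use the same arrays, so neither is independent evidence for the other. With Benjamini-Hochberg adjustment in limma, 0 genes had an adjusted p under 0.05, the smallest was 0.056, and 3747 genes had an unadjusted p under 0.05. A single gene taken alone cannot go below a two-sided exact permutation p of 0.0238 with 6 arrays against 3.

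Ccn2, connective tissue growth factor, a secreted matrix protein and a well known target of YAP, had the largest difference among the higher genes. Its log2 values were 7.38, 6.05 and 6.88 in control livers, 7.70, 8.58 and 7.91 with amoxicillin, and 7.81, 7.97 and 8.57 with tylosin. All 6 PAT values lay above the highest control, and the control livers themselves spread over more than a log2 unit. The difference was 1.32 with a standard error (SE) of 0.28 (limma, Benjamini-Hochberg adjusted p = 0.076), or 2.50-fold, and it held under all 3 scalings.

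Pxylp1, a phosphatase that acts on xylose in the building of proteoglycan chains, had the widest gap, 0.51. Control livers stood at 5.22, 5.74 and 5.85, amoxicillin livers at 6.50, 6.59 and 6.37 and tylosin livers at 6.58, 6.56 and 6.52, so the 6 PAT values lay close together and well clear of the controls. Its difference was 0.91 with SE 0.12 (limma, Benjamini-Hochberg adjusted p = 0.056). However, the other 2 probe sets of Pxylp1 differed by 0.32 and 0.02. Stx6, a SNARE protein of the trans-Golgi network, rose by 0.77, from 6.18 to 6.33 in control livers to a median of 7.06 (6.64 to 7.20) in PAT livers, whereas its other probe sets differed by -0.24 to 0.03.

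The other leading higher genes had varied roles. Birc6, a giant ubiquitin ligase that restrains cell death, stood at 7.93, 7.99 and 7.99 in control livers and at 8.40 to 8.63 (median 8.46) in PAT livers. Its difference of 0.51 was smaller than most leading genes, but the 3 control values were nearly equal and the gap was 0.41. Rprd2, which binds the tail of RNA polymerase II, stood at 6.01 to 6.24 in control livers and 6.63 to 7.31 (median 6.69) in PAT livers, with 2 of the tylosin arrays the highest, but another of its 8 probe sets was separated lower, by -0.24, and the next brightest differed by 0.17. Sall1, a zinc finger transcription factor, rose by 0.63, from 7.34 to 7.55 in control livers to 7.92 to 8.32 (median 8.09). Trp53bp1, which marks DNA double-strand breaks for repair, rose by 0.69, from 5.40 to 5.81 in control livers to 6.17 to 6.65 (median 6.34). Trp53inp1, a p53 target, was among the most abundant of the leading genes, with a PAT median of 11.11 (10.59 to 11.80) against 9.89 to 10.44. Tob2, which slows cell division and promotes removal of mRNA tails, and Ip6k2, an inositol phosphate kinase, were 0.72 and 0.76 higher, with gaps of only 0.04 and 0.02. Ube2v2, a partner of ubiquitin-conjugating enzymes, was 0.67 higher with a gap of 0.36.

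**Figure D2:**
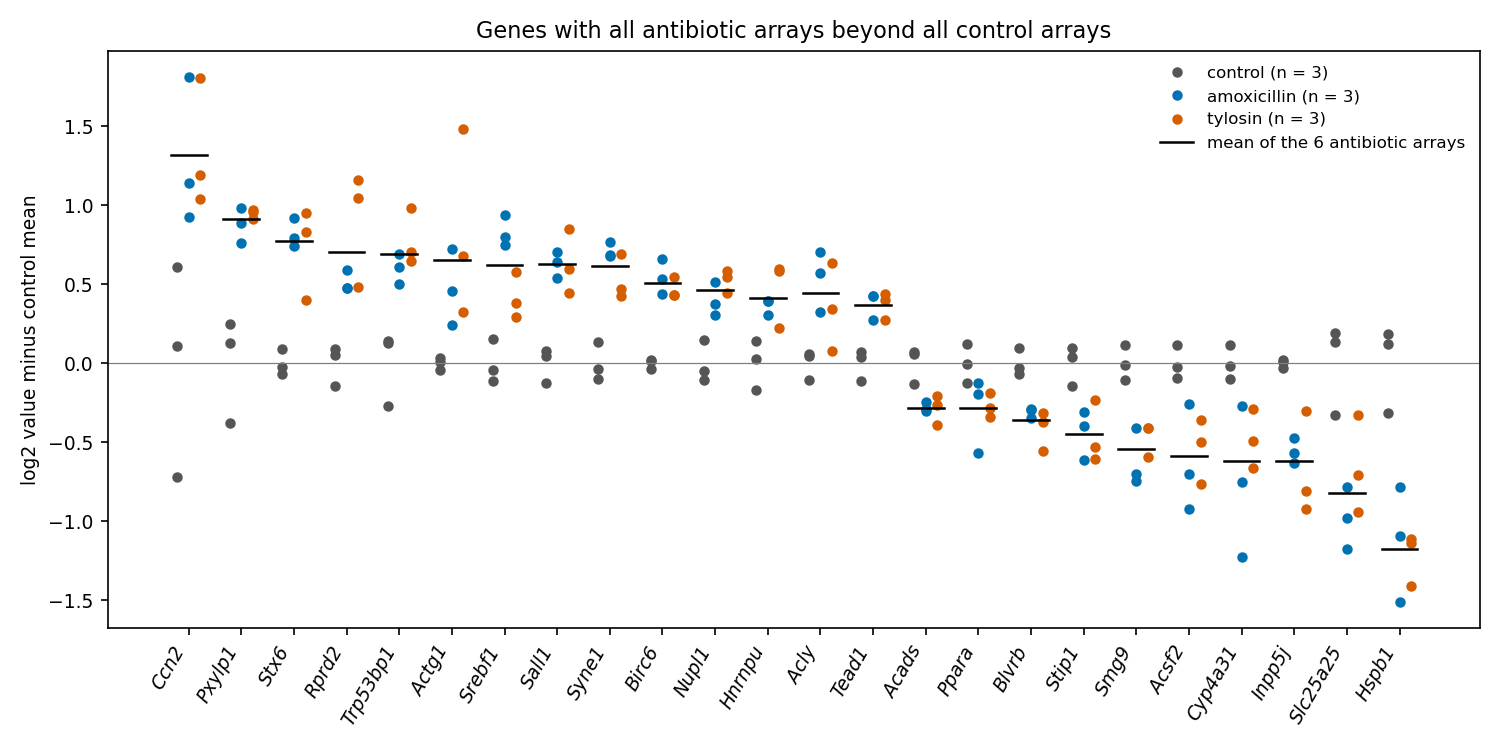
Log2 value minus the mean of the control arrays (vertical axis) for 24 separated genes (horizontal axis), with 1 point per array for control (grey), amoxicillin (blue) and tylosin (orange) and a black line at the mean of the 6 antibiotic arrays. Every blue and orange point lies on the same side of all grey points, by a wide gap for Pxylp1 and Hspb1 and by a narrow one for Acly and Slc25a25.

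Among genes of TGF beta, YAP and matrix signalling, 7 of 25 members with a mean log2 value over 6 were separated higher and 0 lower. That is 28.0% higher, where 7.96% of all genes at that level were higher and 2.39% lower. The median difference over the 25 was 0.24, with 19 positive, beside 0.07 over all genes at that level, of which 66.0% were positive. The 7 included both receptors and effectors. Of the receptors, Tgfbr2, which binds TGF beta, was 0.36 higher and Bmpr2, which binds bone morphogenetic proteins, was 0.32 higher. Of the effectors, Smad1 and Smad5, which carry the bone morphogenetic protein signal, were 0.38 and 0.29 higher, Wwtr1, which encodes TAZ, was 0.58 higher, and Tead1, the DNA-binding partner of YAP and TAZ, was 0.37 higher. Ccn2 was the target among them. Tead1 stood at 6.01, 6.16 and 6.19 in control livers, at 6.54, 6.39 and 6.54 with amoxicillin and at 6.39, 6.52 and 6.56 with tylosin, with no overlap and little spread, although its other probe set, with a mean of only 3.28, was separated the opposite way, by -0.20. Tgfbr2, Bmpr2, Tead1 and Ccn2 held under all 3 scalings, and quantile normalization gave 4 members higher and 2 lower. Without tylosin replicate 3, 10 members were separated higher and 2 lower, where 14.6% and 4.84% of all genes at that level were. With the Actb covariate described below, the median of the 25 was 0.25, beside 0.06 over all genes at that level. Over all 33 measured members, dim ones included, the median difference was 0.17, and 0.09 with the covariate. Id3, a target of bone morphogenetic protein signalling, fell by 0.84 by the limma call but was not separated.

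The actin cytoskeleton list had 9 of 41 members separated higher (22.0%) and 0 lower, with a median difference of 0.19 and 35 positive. Of all genes at the same expression level, 7.96% were separated higher and 2.39% lower. Their median difference was 0.07, and 66.0% had a positive difference. Gamma actin (Actg1), a main non-muscle actin, stood at 10.58, 10.66 and 10.63 in control livers, at 11.34, 11.08 and 10.86 with amoxicillin and at 11.30, 10.95 and 12.11 with tylosin. The controls were nearly equal while the PAT livers varied widely, and tylosin replicate 3 was far above the rest. The difference of 0.65 was not called (limma, Benjamini-Hochberg adjusted p = 0.15). Syne1, a nesprin that links the nucleus to actin, was tighter, at 6.61, 6.85 and 6.68 in control livers and at 7.14 to 7.48 (median 7.39) in PAT livers, and rose by 0.62 (limma, Benjamini-Hochberg adjusted p = 0.056). Actr3, a subunit of the Arp2/3 complex that branches actin filaments, was 0.49 higher, and the spectraplakin Macf1 and the Rac activator Dock1 were 0.37 and 0.24 higher. Each of these 5 held under all 3 scalings. The focal adhesion genes Vcl (0.24) and Actn1 (0.37), the kinase Rock1 (0.23) and cortactin (Cttn, 0.11) were separated as deposited but not under all 3.

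The Actg1 promoter is shown because it carries a CArG box, the motif bound by serum response factor, the transcription factor that responds to actin polymerization. The sequence runs 5′ to 3′ from RefSeq (GRCm38.p6), minus strand, chr11:120348446-120348745, with the CArG box in capitals, starting at position -90 from the start site.
Actg1: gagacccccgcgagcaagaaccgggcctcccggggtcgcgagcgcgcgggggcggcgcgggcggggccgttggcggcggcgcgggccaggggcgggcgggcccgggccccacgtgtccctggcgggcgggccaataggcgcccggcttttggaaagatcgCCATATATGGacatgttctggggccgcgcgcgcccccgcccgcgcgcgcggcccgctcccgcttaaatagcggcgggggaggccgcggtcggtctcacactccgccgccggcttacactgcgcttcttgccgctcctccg
This motif was found by either strand in 1.65% of the promoters of separated higher genes, 3.36% of those of separated lower genes and 1.34% of those of all genes with a mean log2 value over 6. The match is a description of the window and says nothing about binding in these livers.

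Genes that act on RNA and chromatin in the nucleus were separated mostly at higher level. Of 97 spliceosome, SR and hnRNP genes with a mean log2 value over 6, 16 were separated higher and 0 lower, with a median difference of 0.16 and 78 positive. The share higher was 16.5%, beside 7.96% of all genes at that level, of which 2.39% were lower and 66.0% had a positive difference. Hnrnpu, which binds nuclear RNA and scaffolds chromatin, stood at 9.51, 9.63 and 9.32 in control livers and at 9.71 to 10.08 (median 9.88) in PAT livers. Prpf39, a U1 snRNP factor, rose by 0.60, from 6.20, 5.75 and 5.89 in control livers to 6.29 to 6.91 (median 6.53), and all 3 of its probe sets were separated higher. U2surp, a U2 snRNP-associated protein, was 0.40 higher. Prpf19, a core ubiquitin ligase of the spliceosome, was 0.42 higher at its brightest probe set, but the mean of its 5 probe sets differed by -0.01. The SR-related proteins Srrm2 and Son, the helicase Snrnp200 and the hnRNP genes Hnrnph1, Hnrnpr and Syncrip were also separated higher, and 9 of the 16 genes held under all 3 scalings. Of 24 RNA-binding motif proteins, 5 were separated higher (20.8%, beside the same 7.96%) and 0 lower, but quantile normalization gave 2 and 2, and 2 held under all 3 scalings. The lists overlap, since the RNA-binding motif genes Rbm5 and Rbm17 were also among the 16 separated spliceosome genes.

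Chromatin modifying enzymes followed the same direction, with 15 of 87 members separated higher and 1 lower, a median difference of 0.12 and 68 positive. These were 17.2% and 1.15% of the list, beside 7.96% and 2.39% of all genes with a mean log2 value over 6. Of all genes at that level, 66.0% had a positive difference. The higher genes included the H3K4 methyltransferases Kmt2c, Kmt2d and Kmt2e, the acetyltransferase Ep300, the demethylases Kdm5b and Jmjd1c, and the remodelling factors Smarca5 and Bptf. Arid4b, a subunit of a histone deacetylase complex, rose by 0.55, from 7.26, 7.17 and 6.86 in control livers to 7.38 to 7.82 (median 7.67). Jmjd1c stood at 7.93 to 8.25 in control livers and at 8.28 to 8.78 (median 8.63) in PAT livers, with tylosin replicate 3 the lowest of the 6. Setd1a, another H3K4 methyltransferase, was the member separated lower, by -0.27. Under all 3 scalings 7 members held higher and 1 lower, and quantile normalization alone gave 7 higher and 6 lower, so the balance of this list depended on scaling.

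Of 39 nuclear pore and transport genes, 8 were separated higher (20.5%) and 0 lower, with a median difference of 0.10. Of all genes with a mean log2 value over 6, 7.96% were higher and 2.39% lower. The nucleoporin gene Nupl1 stood at 7.30, 7.11 and 7.05 in control livers, at 7.67, 7.46 and 7.53 with amoxicillin and at 7.74, 7.70 and 7.59 with tylosin. Nup205, of the inner ring of the pore, stood at 5.71 to 5.90 in control livers and at 6.15 to 6.33 (median 6.24) in PAT livers, a gap of 0.25. Nup37 and the exportin Xpo7 were 0.46 and 0.44 higher. With quantile normalization the median of the list was -0.00, and 5 members, Nup37, Nupl1, Nup205, Xpo7 and the import receptor Tnpo1, held under all 3 scalings. Without tylosin replicate 3 the median was 0.05, with 10 members higher and 1 lower, where 14.6% and 4.84% of all genes at that level were. Nup205 and Nup37 passed the level of 6 only through the antibiotic arrays. With both group means over 6, 6 of 36 members were separated higher (16.7%), beside 7.6% of all genes under that rule.

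**Figure D3:**
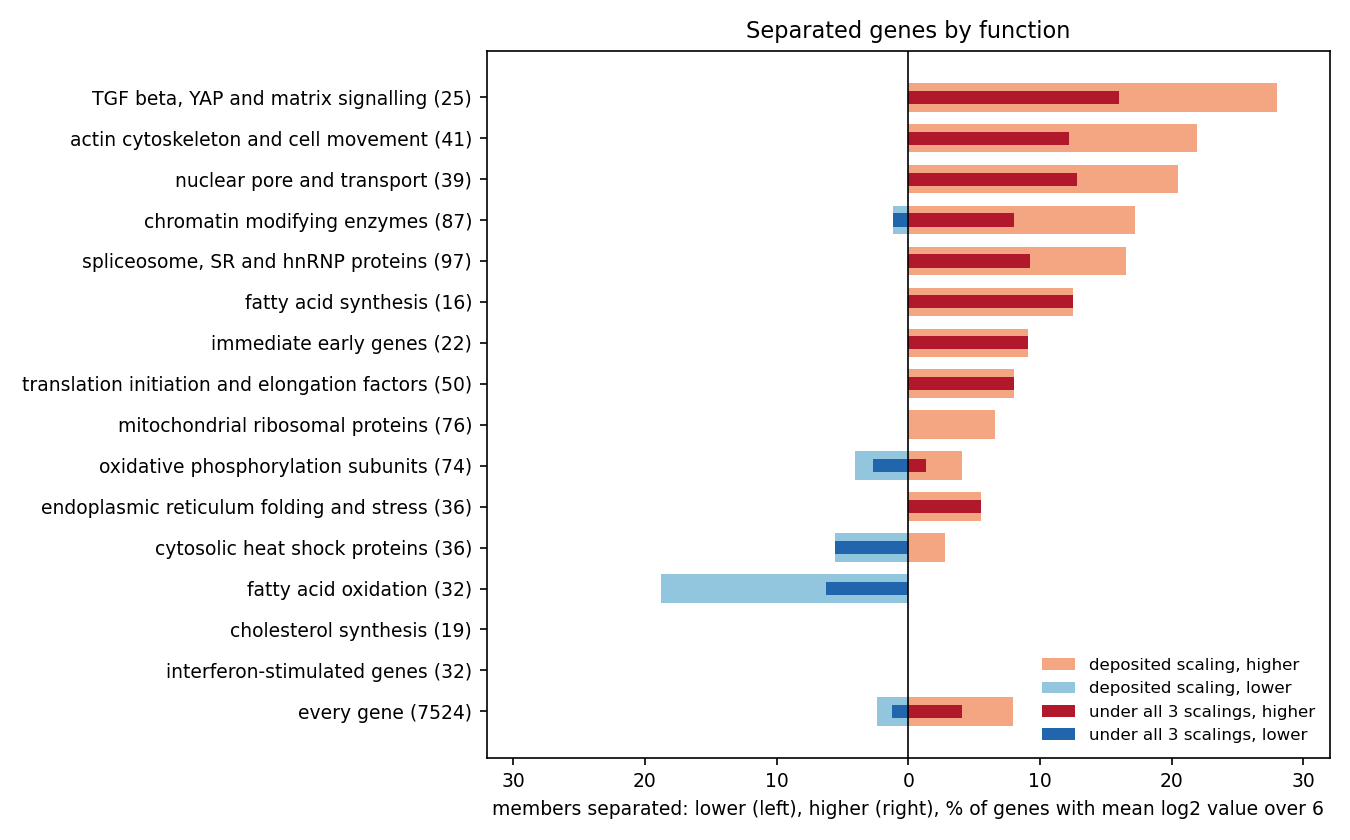
Share of the genes of each list with a mean log2 value over 6 (number in parentheses) that were separated lower (left) or higher (right), in percent on the horizontal axis, as deposited (pale) and under all 3 scalings (dark). TGF beta, actin, nuclear pore, chromatin and spliceosome genes extend to the right, and fatty acid oxidation extends to the left with 6 of 32 members.

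Srebf1, the transcription factor that drives fatty acid synthesis, stood at 8.38, 8.31 and 8.58 in control livers, at 9.36, 9.23 and 9.18 with amoxicillin and at 9.01, 8.72 and 8.81 with tylosin. All 3 amoxicillin values lay above all 3 tylosin values, and both groups lay above the controls. Srebf1 rose by 0.62 with SE 0.14 (limma, Benjamini-Hochberg adjusted p = 0.083). Acly, which makes the acetyl-CoA for fatty acid synthesis, stood at 9.28, 9.44 and 9.43 in control livers and at 9.46 to 10.09 (median 9.84) in PAT livers, a difference of 0.44 that was not called. Both held under all 3 scalings, and they were the 2 separated members of 16 (12.5%, beside 7.96% of all genes at that level). The median of the 16 was 0.13, and 0.08 with the Actb covariate. Fatty acid synthase (Fasn), at a difference of 0.37, was not separated.

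Of 32 fatty acid oxidation genes, 6 were separated lower (18.8%) and 0 higher, where 2.39% of all genes at that level were lower and 7.96% higher. The median difference was -0.18, with only 2 members positive, where 66.0% of all genes at that level were. The 6 included the transcription factor Ppara (-0.28) and the carnitine shuttle genes Cpt2 (-0.23) and Slc25a20 (-0.22). The others were the matrix enzymes Acads (-0.28) and Acaa2 (-0.17) and the omega-hydroxylase Cyp4a31. Only Cyp4a31 was called, and the gaps of Ppara, Slc25a20 and Cpt2 were narrow, at -0.0015, -0.0097 and -0.0201. Ppara stood at 11.05, 10.81 and 10.93 in control livers, at 10.74, 10.36 and 10.81 with amoxicillin and at 10.59, 10.75 and 10.65 with tylosin, and all 3 of its probe sets were separated lower. Acads, the short-chain acyl-CoA dehydrogenase, stood at 10.12, 9.92 and 10.12 in control livers and at 9.66 to 9.85 (median 9.78) in PAT livers. Cyp4a31 fell by 0.62, from 9.03, 8.81 and 8.89 in control livers to 7.69 to 8.64 (median 8.33), whereas its other probe set differed by 0.56 in the opposite direction. Acads and Cyp4a31 held under all 3 scalings, and array medians set equal left 2 members lower. The shift was largest in amoxicillin replicate 1, where the median of the list was -0.46 from the control mean, and without amoxicillin replicate 1 and tylosin replicate 2 the median difference of the list was -0.05. Acsf2, an acyl-CoA synthetase outside the list, fell by 0.58, from 7.29, 7.36 and 7.50 in control livers to 6.46 to 7.13 (median 6.79).

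Hspb1 (HSP27), a small heat shock protein, had the widest gap of the lower genes, -0.47. Control livers stood at 9.38, 9.81 and 9.88, amoxicillin livers at 8.60, 8.91 and 8.18, and tylosin livers at 8.28, 8.55 and 8.58, so every PAT liver lay far below every control. Hspb1 fell by 1.17 on the log2 scale with SE 0.16 (limma, Benjamini-Hochberg adjusted p = 0.056), or 2.26-fold, and its other probe set, at -1.22, was separated too. The fall held under all 3 scalings.

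The Hspb1 promoter is shown because its heat shock elements are the sites by which heat shock factor switches on this gene. The sequence runs 5′ to 3′ from RefSeq (GRCm38.p6), plus strand, chr5:135887669-135887968, with both matches to the core GAANNTTC in capitals, starting at positions -117 and -97 from the start site.
Hspb1: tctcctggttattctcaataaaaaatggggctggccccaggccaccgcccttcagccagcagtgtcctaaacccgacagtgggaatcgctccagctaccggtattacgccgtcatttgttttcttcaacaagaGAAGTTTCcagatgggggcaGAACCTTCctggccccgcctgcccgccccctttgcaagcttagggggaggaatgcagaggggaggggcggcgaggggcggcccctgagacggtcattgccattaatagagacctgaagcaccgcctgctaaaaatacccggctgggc
The core was found in 5.97% of the promoters of separated higher genes, 4.7% of those of separated lower genes and 5.67% of those of all genes with a mean log2 value over 6, so the 3 shares lay close together.

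Other chaperones moved less uniformly. Of 36 cytosolic heat shock genes, 2 were separated lower (5.56%) and 1 higher (2.78%). Of all genes with a mean log2 value over 6, 2.39% were lower and 7.96% higher. The median difference of the list was -0.15, with 12 positive, and -0.08 with the Actb covariate. Stip1, which joins HSP70 to HSP90, was the second lower gene, at 7.95, 8.13 and 8.19 in control livers and 7.48 to 7.86 (median 7.63) in PAT livers, and it held under all 3 scalings. Hspa4, an HSP110-type chaperone, was the higher one, by 0.17. The HSP70 gene Hspa1b stood at 11.25, 11.28 and 11.29 in control livers and at 9.74, 9.66, 9.66 and 9.85 in 4 PAT livers, but tylosin replicates 2 and 3 stood at 11.26 and 11.74, so the groups overlapped. Without tylosin replicate 3, 10 of the 36 members were separated lower and 1 higher, where 4.84% and 14.6% of all genes at that level were. Of 36 endoplasmic reticulum folding and stress genes, Xbp1 and Derl1 were separated higher (5.56%) and 0 lower, with a median difference of -0.22 and 9 positive. Creld2, Manf and Hyou1, genes of the unfolded protein response, fell by 1.32, 0.85 and 0.75 by the limma call but were not separated. Control replicate 1 lay within the range of the PAT livers for each of these 3. Creld2 stood at 8.89, 10.01 and 10.69 in control livers and 7.92 to 9.41 in PAT livers. Xbp1, a transcription factor of the same response, was separated higher by 0.20 at its brightest probe set, whereas its other probe sets differed by 0.10, -0.07 and -0.57.

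Among the other lower genes, the ribosomal protein gene Rpl27a had the largest difference, -1.62, but a split one. Control livers stood at 8.88, 8.82 and 8.995. Amoxicillin livers stood at 6.76, 8.61 and 6.80 and tylosin livers at 6.45, 6.32 and 8.71, so 4 PAT livers were far below and 2 were just below the controls. Those 4 arrays also had the 4 highest differences between 3′ and 5′ probe sets of Actb, a sign of RNA length on these arrays, and with that difference as a covariate the value was -0.95. Rpl27a has many near-identical pseudogene copies, which its probes may share. The part of either in the result was not tested. Inpp5j, an inositol phosphate phosphatase, fell by 0.62, from 8.54, 8.57 and 8.59 in control livers to 7.65 to 8.27 (median 7.97). Slc25a25, a mitochondrial ATP-Mg carrier, fell by 0.82, but tylosin replicate 3 and the lowest control were both at 8.65, so the gap was -0.00. Blvrb, biliverdin reductase B of heme breakdown, was 0.36 lower, at 10.08, 10.24 and 10.11 in control livers and at 9.59 to 9.86 (median 9.82) in PAT livers. Smg9, of nonsense-mediated mRNA decay, fell by 0.54, and the laminin gene Lama5 by 0.68.

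Gene length, which the rule had not used, differed between the genes separated higher and lower, with wide overlap. The median span in the genome (RefSeq, GRCm38.p6) was 38.58 kb for 597 separated higher genes, 12.04 kb for the 180 separated lower genes and 23.55 kb for 7516 genes with a mean log2 value over 6. When these genes were divided into 4 equal groups of 1879 by length, the share separated higher was 4.26%, 5.91%, 9.42% and 12.2% from the shortest to the longest. The share separated lower went the other way, at 4.26%, 2.66%, 1.65% and 1.01%. With array medians set equal the shares separated higher were larger and those lower were smaller, and with quantile normalization the reverse, but the order of the shortest and longest groups was kept: higher genes went from 8.36% to 17.6% and from 1.97% to 7.4%, and lower genes from 2.29% to 0.479% and from 8.25% to 4.36%. The median difference went from 0.02 in the shortest group to 0.13 in the longest, and the median level from 8.09 to 7.53, so length and level varied together. The number of probe sets, of which the rule took the brightest, had a median of 3 for higher genes, 2 for lower genes and 2 for all genes at that level. Length, level and the number and design of probe sets were not told apart.

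**Figure D4:**
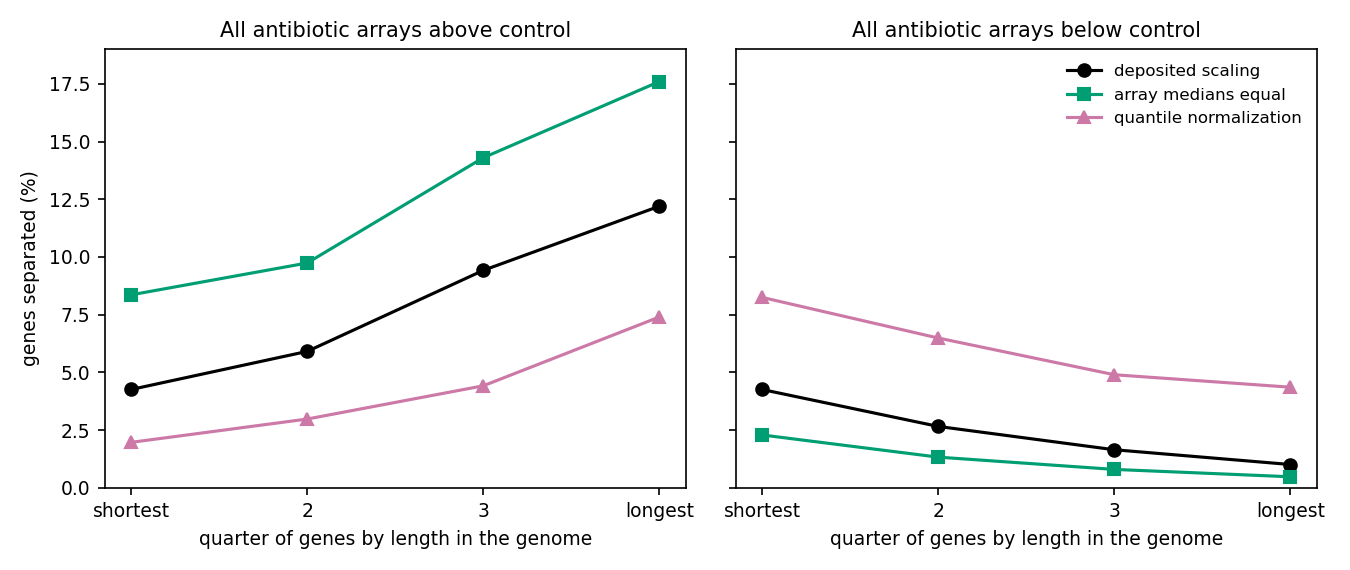
Share of genes with a mean log2 value over 6 (vertical axis, percent) that were separated higher (left panel) or lower (right panel), in 4 equal groups by gene length from shortest to longest (horizontal axis), as deposited (circles), with array medians set equal (squares) and with quantile normalization (triangles). The share separated higher rose from 4.26% to 12.2% as deposited, and the share separated lower fell from 4.26% to 1.01%.

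Promoters of the separated genes were set beside those of all genes at the same level. The window of 300 bases around the start site was given for 486 higher, 149 lower and 6187 of all genes with a mean log2 value over 6. Median GC content was 63.83%, 62.33% and 61.33%. The GC box GGGCGG was found on either strand in 73.5% of higher, 66.4% of lower and 65.8% of all these promoters, and the TATA box TATAAA in 3.91%, 10.1% and 7.39%. The AP-1 site TGANTCA was in 2.06%, 8.72% and 4.83%, and the cyclic AMP element TGACGTCA in 4.53%, 2.01% and 3.36%. The TEAD motif GGAATG, of interest beside Tead1 and Ccn2, was in 10.3%, 12.1% and 11.6%, and the CCAAT box in 37.2%, 36.2% and 38.5%. These shares describe letters in a window and carry no test.

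In the separated genes the values of both antibiotics lay close together. All 779 had the same sign with amoxicillin and with tylosin, which the rule fixes, since both groups share the control arrays. The means of the 2 antibiotics lay within 0.25 of each other in 766 of the 779, and 0 differed by over 0.5. Between tylosin and amoxicillin, limma called 20 of 18193 genes (0.11%) and 0 of the 779, of which 9 had an unadjusted p under 0.05, beside 245 of all 7524 genes at that level. A rule that asks 6 arrays to lie on 1 side favours genes on which the antibiotics do not differ, so these values describe the members. Over all levels, Akap12, a scaffold protein for protein kinase A with a mean log2 value under 6, was the 1 separated gene called between the antibiotics, at 0.79 higher with tylosin.

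**Figure D5:**
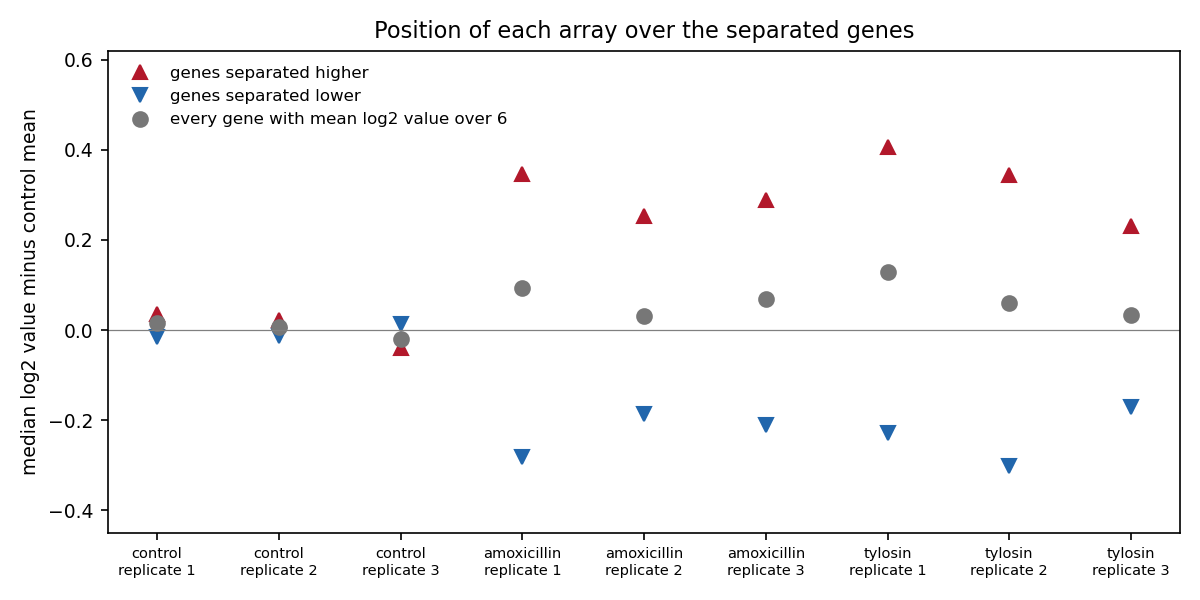
Median log2 value minus the control mean (vertical axis) for separated higher genes, separated lower genes and every gene with a mean log2 value over 6, in each of the 9 arrays (horizontal axis). The antibiotic arrays range from 0.23 to 0.41 for the higher genes and from -0.30 to -0.17 for the lower genes, with tylosin replicate 3 the closest to the controls.

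Separation at this level was limited most often by tylosin replicate 3 among the antibiotic arrays. It was the antibiotic array nearest to the controls in 35.9% of the 599 higher and 32.2% of the 180 lower genes, and amoxicillin replicate 2 was so in 30.9% and 25.0%. Over all 975 lower genes the order was reversed, with amoxicillin replicate 2 nearest in 33.0% and tylosin replicate 3 in 24.4%. Without tylosin replicate 3, 1102 genes were separated higher and 364 lower, and 445 genes over all levels had a limma Benjamini-Hochberg adjusted p under 0.05. Leaving out an array can only add separated genes. Without control replicate 1 the counts were 1174 and 373, and without control replicate 2 they were 1089 and 359. With the Actb difference between 3′ and 5′ probe sets as a covariate, 73 of the 167 higher and 21 of the 70 lower calls over all levels were still called. Median differences of the 599 and 180 genes were then 0.30 and -0.21, and their signs carry no weight, since separation nearly fixes them.

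Markers of intestine and smooth muscle were high in 2 antibiotic arrays. The mean log2 level over 16 intestinal epithelium genes was 4.48 to 4.54 in control livers, 6.38 in amoxicillin replicate 1, 6.03 in tylosin replicate 2 and 4.37 to 4.82 in the other 4 antibiotic livers. The mean over 12 smooth muscle genes was 4.13 to 4.38 in control livers, 5.36 and 5.47 in the same 2 arrays and 4.04 to 4.25 in the other 4. Epcam, an epithelial adhesion gene, stood at 7.10 and 6.48 in those arrays and at 3.78 to 4.83 elsewhere, and it was itself separated higher, narrowly, from the controls. Reg3b, an antimicrobial lectin of the intestine, stood at 10.18 and 9.72 in those 2 arrays, at 7.75 in tylosin replicate 1 and at 2.67 to 3.15 in the other 6, so 1 more antibiotic array carried a marker of this list at a high level. Neither of these 2 lists had a separated member, nor did the 11 hepatocyte, 14 Kupffer cell and 12 sinusoidal endothelial genes. Separated higher were 1 of 12 stellate cell, 1 of 7 cholangiocyte and 1 of 6 adipocyte genes. Separated lower were 1 of 8 B cell, 1 of 9 neutrophil, 1 of 7 pancreatic acinar and 2 of 10 skeletal muscle genes. Over all levels 4.35% of all genes were higher and 5.36% lower, so counts in lists this short do not set a cell type apart. Without both arrays, 722 genes with a mean log2 value over 6 were separated higher and 206 lower, counts that leaving out arrays can only raise. Limma calls at that level went from 109 higher and 22 lower to 57 and 6, in a fit with fewer arrays.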

How the data were processed

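Liver RNA of 9 mice (3 control, 3 amoxicillin, 3 tylosin) was measured on Affymetrix mouse expression arrays with probe sets near the 3′ end of transcripts. The deposited log2 values were made by the authors with RMA (affy package), for which no version was given in the sources read. Raw intensities were not analysed here. No pair of arrays was identical, and array pairs correlated at 0.988 to 0.996.

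Of 45101 probe sets, 64 controls of the manufacturer were left out, and 45037 were tested with limma 3.58.1 in R 4.3.3, all 6 antibiotic arrays against all 3 control arrays in 1 fit, with Benjamini-Hochberg adjustment over all of them. By the platform annotation, 34945 of them had 1 symbol, 932 had several and 9160 were unnamed. The symbols of 34741 were checked by gene identifier, which changed 0 of them. Promoters and gene spans came from RefSeq on GRCm38.p6, matched by symbol. Python 3.11.15 and pandas 2.3.3 were used for the counts and matplotlib 3.10.9 for figures. The fit was tested on simulated data.

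The comparison, its rule and the gene lists were chosen with earlier results of these data known, so lists are described by counts and medians and carry no test. The genes named followed a rule set for this comparison: the 15 largest differences in each direction among called and separated genes with a mean log2 value over 6 in either group, the 10 widest gaps in each direction, up to 4 members of each list described, separated ones first, with its defining members, the defining markers of each cell type, and Hspb1. Other separated list members, Pxylp1's further probe sets and array-specific markers were named after their values were seen. The number of arrays limits the precision of every value.

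Samples with the same replicate number did not deviate together: of 9 such pairs, 2 correlated above 0.1 (range -0.245 to 0.151), so the numbers were not used to pair samples. The alternatives were median centring, quantile normalization, a filter on dim probe sets, the mean of all probe sets of a gene, probe sets with a plain suffix, the adjusted p, a log2 difference over 1, variance trend, array weights, 3 groups in 1 fit, 1 probe set per gene in the fit, an Actb covariate, a replicate block, and arrays left out. The level filter over both or either group, and the Actb covariate for list medians, were added after the data were seen.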

Additional observations from a re-analysis of the deposited data

Results flagged for a closer look

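Each of 99 named genes and 7 measures of the arrays was examined for an array far from the rest of the 6 antibiotic arrays by Dixon's ratio, the gap to the nearest array divided by the range, at its 95% critical value. Chance gives such a value in about 1 group in 20. Blvrb in tylosin replicate 2 was low, at 9.59, with a ratio of 0.69. Prpf19 in tylosin replicate 3 was low, at 9.74 (ratio 0.74), nearest to the controls. Akap12 in tylosin replicate 3 was high, at 7.24 (ratio 0.66), and so was Krt23, a keratin, at 5.53 (ratio 0.64). Clec4f, a Kupffer cell receptor, stood at 7.50 in tylosin replicate 3 (ratio 0.79). Marco, Timd4 and Lyz2 of the same list stood at 10.95, 7.29 and 10.65 there, the highest of all arrays. The mean over the 14 Kupffer cell genes was 9.43 in that array, 9.41 in amoxicillin replicate 1 and 8.64 to 9.27 in control livers. Ciart, a circadian repressor, stood at 4.36 in amoxicillin replicate 2 (ratio 0.66).

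Akap12 also differed between the antibiotics, by 0.79 as tylosin minus amoxicillin (limma, unadjusted P = 0.00728), and tylosin replicate 3 had the highest value.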

How the results depend on the processing

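Beside 167 genes called higher and 70 lower, array medians set equal gave 284 and 31, a filter on dim probe sets 108 and 18, the mean of all probe sets 48 and 36, a log2 difference over 1 gave 3 and 4, the adjusted p 0 and 0, and both amoxicillin replicate 1 and tylosin replicate 2 left out 100 and 31. Quantile normalization gave 89 higher and the Actb covariate 25 lower. With each array left out in turn, 117 to 283 genes were called higher and 48 to 134 lower. The counts of separated genes, 792 higher and 975 lower, were 1317 and 577 with medians set equal, and the dim filter left 194 lower. With 1 array left out they were 817 to 1585 and 1031 to 1838, and 0 to 6 separated genes were called between the antibiotics. With the replicate number as a block, 173 were called higher and 68 lower, so the pairing changed neither count by much. Of the 167 and 70 calls, 81 and 61 were still called after quantile normalization and 73 and 21 with the Actb covariate.

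With probe sets of a plain suffix the differences were -0.0008 for Stx6, -0.20 for Mapre2, 0.0071 for Arhgef1, -0.091 for Prpf19, -0.10 for Syne2, -0.039 for Derl1, -0.57 for Xbp1 and -0.10 for Acta2, each the opposite sign. The mean of all probe sets turned Prpf19 to -0.0079 and Xbp1 to -0.085. With 1 array left out, Dbp, a circadian output gene, ranged from -1.51 (without control replicate 2) to 0.32 (without control replicate 1), and the macrophage receptor Marco from -0.20 (without tylosin replicate 3) to 1.08 (without control replicate 2), with a sign turned to -0.15 without control replicate 1 as well. Without amoxicillin replicate 1 and tylosin replicate 2, Krt19 was at -0.0025 and Actg2 at -0.043. The cause of these reversals was not tested.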

Other observations

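Further gene groups were measured on the same arrays. Of 50 translation factors with a mean log2 value over 6, 4 were separated higher (8.0%, beside 7.96% of all genes at that level) and 0 lower, all 4 under all 3 scalings, with a median difference of 0.03 that was -0.04 after quantile normalization. Mitochondrial ribosomal protein genes had 5 of 76 members separated higher (6.58%), but 0 under all 3 scalings. Oxidative phosphorylation genes had 3 higher and 3 lower of 74 (4.05% each), beside 7.96% and 2.39% of all genes at that level. Zinc finger (Zfp) genes had 14 higher (15.6%) and 3 lower (3.33%) of 90, beside the same 7.96% and 2.39%, and 6 and 7 after quantile normalization. Of 22 immediate early genes, Mcl1 and Nfkbia, which restrain cell death and NF-kappa B, were separated higher, by 0.31 and 0.45. They were 9.09% of the list, close to the 7.96% of all genes at that level, and both held under all 3 scalings. Without tylosin replicate 3 the median of this list went from 0.18 to 0.04, with 2 members separated lower, where 4.84% of all genes at that level were. Nfkbia stood at 10.41 to 10.79 in control livers and at 10.84 to 11.41 (median 11.08) in PAT livers.

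Neither cholesterol synthesis (0 of 19 separated, median difference 0.05) nor interferon-stimulated genes (0 of 32, median difference 0.01) had a separated member. Of all genes at that level 7.96% were higher and 2.39% lower, with a median difference of 0.07, so few members would be looked for in lists of this size. ABC transporters had 1 member higher (3.45%) and 3 lower (10.3%) of 29, beside 7.96% and 2.39% of all genes with a mean log2 value over 6. Over all levels, potassium channel genes had 1 of 84 measured members separated higher and 12 lower (14.3%, beside 5.36% of all genes and 7.32% of genes under 4), and only 6 of the 84 had a mean log2 value over 6. Other probe sets of the separated higher genes with a mean log2 value over 6 had the same sign in 304 of 358 cases (84.9%), beside 69.4% positive among other probe sets of all genes at that level, and those of the separated lower genes in 43 of 67 (64.2%).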
